A study of Rattus norvegicus with 18 samples.

Results

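In all, 10 genes of the transforming growth factor beta (TGF-beta) pathway, out of 33898 genes in the deposited count table, were followed through the response of rat nucleus pulposus cells to 3 compounds that bind G-quadruplexes, the 4-stranded folds of guanine-rich nucleic acid. The 10 genes were taken by name. They were the ligands Tgfb1, Tgfb2 and Tgfb3, and Ltbp2 of the latent-TGF-beta-binding protein family. The others were the receptors Tgfbr1 and Tgfbr2, the signal carrier Smad3, and the feedback genes Smad7, Skil and Pmepa1. Each name matched 1 protein-coding row, and all 10 passed the filter on low counts that left 14184 genes to be tested. The genes were chosen by their log2 changes and levels in these same comparisons, so their calls below are a description and not independent support.

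The cells came from the gelatinous core of the intervertebral disc of 8-week-old Sprague Dawley rats, were grown in DMEM with serum, rested in 6-well plates for 24 h and were then exposed for 24 h. There were 18 RNA-seq libraries in 6 groups of 3, named biological repeats in the design text: PDS and PDS control, Phen-DC3 and Phen-DC3 control, Braco-19, and a control group whose titles name no compound. That last group, called the plain control here and "control" in the plots, was set against Braco-19 by elimination. Doses, what the controls received, and whether repeats came from separate animals were not given, so p-values measure the spread between these libraries.

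Libraries held 15715121 to 18369443 counts, of which the 10 genes took 0.183 to 0.539%. Genes over 5000 bases long took 8.67% ± 0.29 of counts with PDS and 8.66% ± 0.59 in PDS control, 7.99% ± 0.52 with Phen-DC3 and 9.99% ± 0.74 in Phen-DC3 control, and 24.2% ± 0.95 with Braco-19 and 25.3% ± 0.18 in plain control (SD, n = 3 each). The Braco-19 and plain control libraries thus stood apart from the other 12 in the length of what was counted. Of the disc core markers, Pax1 was at 73.7 to 116 CPM (the usual depth-scaled read count of a gene, here with TMM scaling) and Foxf1 at 33.7 to 48.0 CPM, while Tbxt, Krt19 and Shh were at 0 in every library and Acan was at 0.059 to 3.44 CPM. The fibroblast-associated gene Thy1 was the highest of 7 annulus or tendon fibroblast markers, at 504 to 966 CPM. Of the others, Pdgfra was at 105 to 216, Scx at 46.6 to 120, Thbs4 at 19.9 to 29.7 and Mkx at 10.6 to 15.9 CPM. Dpt was at 0.353 to 1.23 CPM, and Tnmd at 0 in every library. The leukocyte gene Ptprc and the endothelial gene Cdh5 were at 0 throughout, with summed marker levels of at most 5.43 CPM for macrophages and monocytes, 0.995 CPM for endothelium and 0.249 CPM for lymphocytes.

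TGF-beta ligands are secreted in a latent form and held in the matrix by members of the latent-TGF-beta-binding protein family. Once freed, a ligand brings together the type II receptor TGFBR2 and the type I receptor TGFBR1, whose kinase activity passes the signal to SMAD2 and SMAD3, and these enter the nucleus with SMAD4 to switch on target genes. Among the targets are inhibitors of the same route: SMAD7 acts at the receptor, the SKIL protein (SnoN) represses SMAD-driven transcription, and the PMEPA1 membrane protein keeps SMAD2 and SMAD3 from the receptor. In the disc the pathway is known for its part in matrix production.

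Because the compounds bind G-quadruplexes and the feedback genes are SMAD targets, the 250 bases upstream of each start site were read from RefSeq (build GRCr8) for letters that bear on either. All 10 genes had an entry among 33469 promoters. The 5 letters CAGAC, which SMAD3 and SMAD4 can bind, or their reverse complement GTCTG, occurred in 3 of the 10 windows (1 copy for Pmepa1, 2 for Skil, 3 for Ltbp2), against 42.9% of all windows. The palindrome GTCTAGAC was in none of the 10, against 0.173% of all. Pmepa1, the gene with the largest rise of the 10 under PDS, is shown with its CAGAC match in capitals, on the opposite strand, beside Tgfb3, the gene that fell and held no match; they lie at chr3:182478650-182478899 and chr6:111456947-111457196 (GRCr8, both minus strand, written 5′ to 3′ along the gene).
Pmepa1: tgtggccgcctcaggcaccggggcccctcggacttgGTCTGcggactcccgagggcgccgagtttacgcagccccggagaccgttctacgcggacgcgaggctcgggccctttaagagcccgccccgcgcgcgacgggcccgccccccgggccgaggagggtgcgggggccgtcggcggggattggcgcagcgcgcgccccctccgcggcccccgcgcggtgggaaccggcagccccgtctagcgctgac
Tgfb3: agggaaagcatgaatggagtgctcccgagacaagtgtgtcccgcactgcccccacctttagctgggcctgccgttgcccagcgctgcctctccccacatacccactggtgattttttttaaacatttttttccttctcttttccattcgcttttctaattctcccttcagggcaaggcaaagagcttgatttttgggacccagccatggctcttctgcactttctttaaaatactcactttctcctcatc
A run of 4 blocks of at least 3 guanines, 1 to 7 bases apart, on either strand was present in 4 of the 10 windows (Tgfbr1, Tgfbr2, Smad7 and Skil) against 14.9% of all windows. The related box GGGCGG was in 7 of 10, against 30.5% of all. The 10 windows held 48.8 to 78.4% guanine and cytosine, against a median of 51.2% over all windows. Skil and Smad7, both feedback inhibitors but with different responses below, are shown with the guanine-block stretches in capitals; Skil has one on each strand (runs of C mark the opposite strand). They lie at chr2:114203573-114203822 (minus strand) and chr18:71263258-71263507 (plus strand).
Skil: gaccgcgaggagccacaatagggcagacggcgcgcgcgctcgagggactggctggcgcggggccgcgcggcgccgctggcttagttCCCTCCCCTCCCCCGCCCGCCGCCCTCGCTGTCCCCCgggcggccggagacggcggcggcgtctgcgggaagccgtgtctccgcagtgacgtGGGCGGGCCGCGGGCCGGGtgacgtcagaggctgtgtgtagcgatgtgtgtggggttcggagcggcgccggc
Smad7: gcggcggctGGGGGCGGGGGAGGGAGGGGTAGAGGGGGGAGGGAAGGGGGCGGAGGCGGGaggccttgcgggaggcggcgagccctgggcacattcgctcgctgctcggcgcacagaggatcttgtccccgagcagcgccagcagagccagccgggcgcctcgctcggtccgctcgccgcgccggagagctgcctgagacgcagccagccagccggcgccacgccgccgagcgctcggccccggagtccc
These matches are letters in a window and were not tested for folding or binding.

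Levels were compared between genes per length, as RPKM, which is CPM per kilobase of the deposited gene model. Ltbp2 ranked first in all 6 groups, from 149 ± 8.5 RPKM with Phen-DC3 to 573 ± 17 RPKM with Braco-19 (SD, n = 3). Among the ligands, Tgfb1 exceeded Tgfb3 and Tgfb3 exceeded Tgfb2 in each group: with PDS the means were 110 ± 3.9, 53.4 ± 2.2 and 16.0 ± 1.1 RPKM. With Phen-DC3 the gap between Tgfb1 (82.3 ± 4.4 RPKM) and Tgfb3 (76.9 ± 1.9 RPKM) was 1.23 times the larger SD. Per length Tgfbr2 exceeded Tgfbr1 in each group: Tgfbr2 was at 41.6 ± 2.9 RPKM and Tgfbr1 at 7.50 ± 0.17 RPKM with PDS. Skil, Smad7 and Tgfbr1 filled the 3 lowest places in the PDS and Phen-DC3 groups and their controls. The gap between Skil and Tgfbr1 was under the larger SD in PDS control (7.07 and 6.71 RPKM) and with Phen-DC3 (6.92 and 7.26 RPKM). Pmepa1 was the second with PDS, at 119 ± 4.7 RPKM, and the fourth in PDS control, at 55.3 ± 3.3 RPKM.

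**Figure D1:**
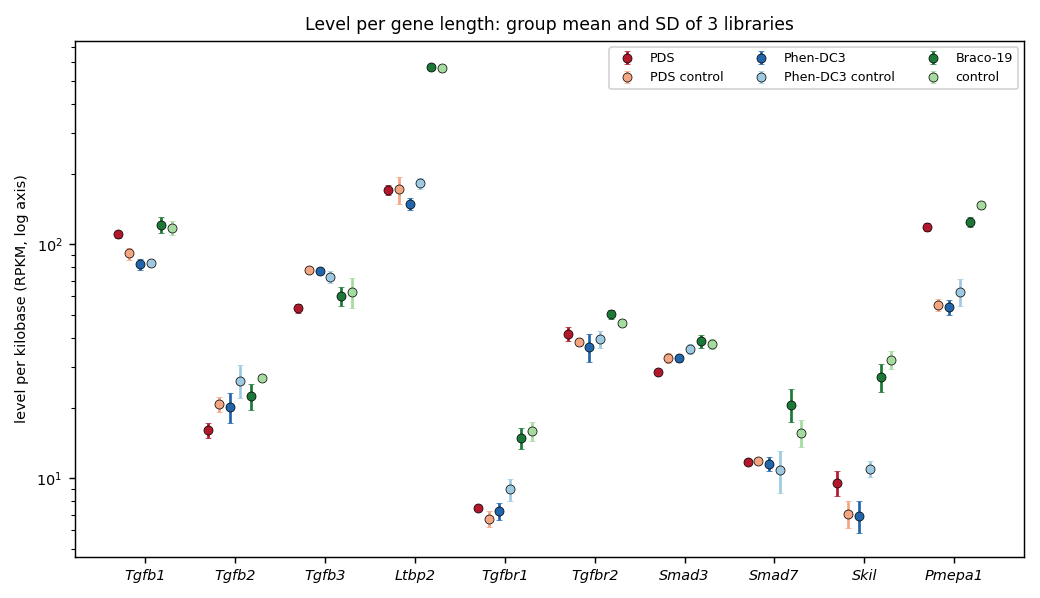
Mean level of each of the 10 genes per length (RPKM, log axis; error bars are SD, n = 3) in each of the 6 groups. Ltbp2 is at the top of every group, and Pmepa1 stands at 119 RPKM with PDS against 55.3 RPKM in PDS control.

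PDS raised 2 feedback genes and 1 ligand, and lowered another ligand. Of the 10 genes, 3 rose (Pmepa1, Skil, Tgfb1), 1 fell (Tgfb3) and 6 did not pass the threshold of an adjusted p of 0.05 in edgeR's quasi-likelihood test. Over all tested genes 8.09% passed (5.13% higher, 2.96% lower). The groups of libraries did not overlap for 7 of the 10 genes, against 33.3% of all genes. DESeq2 called 3 higher and 3 lower. Because this comparison was used to choose the genes, nothing is read from the counts. The summed level of 7 annulus or tendon fibroblast markers was 1036 to 1152 CPM with PDS and 1197 to 1223 CPM in PDS control, and that of 17 nucleus pulposus markers was 271 to 283 CPM with PDS and 291 to 301 CPM in PDS control, both without overlap; their part in the result was not tested.

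Tgfb1, the main TGF-beta ligand of many tissues, was at 242, 240.0 and 227 CPM with PDS and at 199, 205 and 183 CPM in PDS control. All 3 PDS libraries were above all 3 controls. The difference was small, 0.27 ± 0.07 on the log2 scale (SE), a 1.21-fold rise with an adjusted p of 0.0215 in edgeR. It missed the threshold without PDS control replicate 3 (adjusted p = 0.103), PDS replicate 1 (0.077) or PDS replicate 2 (0.0782), and without the count filter (0.0524). Tgfb3, a ligand prominent in cartilage and connective tissue, was at 146, 137 and 136 CPM with PDS against 207, 207 and 196 CPM in PDS control. Every PDS library was below every control, and Tgfb3 fell by 0.54 ± 0.09 on the log2 scale (adjusted p = 0.000493), passing under every alternative tried. Tgfb2, the third ligand, was at 63.6, 72.2 and 72.0 CPM with PDS against 97.4, 85.3 and 86.9 CPM in PDS control. Its libraries did not overlap either, but with a difference of -0.38 ± 0.12 it missed the threshold at an adjusted p of 0.0524. It passed with DESeq2 (adjusted p = 0.0203) and after a correction for gene length (-0.44, adjusted p = 0.006).

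Ltbp2, a large matrix protein of the binding-protein family, was at 1096, 1210.2 and 1146 CPM with PDS and at 1203, 1279 and 981 CPM in PDS control. The libraries interleaved, and the 95% interval of the log2 difference ran from -0.17 to 0.16. For the receptors the differences were 0.16 ± 0.10 for Tgfbr1 and 0.12 ± 0.09 for Tgfbr2, neither past the threshold. Tgfbr1 was at 43.3, 43.6 and 45.1 CPM with PDS against 41.0, 35.8 and 41.1 CPM in PDS control, with all PDS libraries higher. Smad3 was at 145, 141 and 143 CPM with PDS and at 172, 167 and 157 CPM in PDS control, lower in every PDS library. Its difference of -0.21 ± 0.07 had an adjusted p of 0.0567, and -0.29 with an adjusted p of 0.00767 after the length correction.

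Pmepa1, which dampens SMAD2 and SMAD3 activation, lies on the minus strand of chromosome 3 from 171294856 to 171342646 in the deposited table, whose genome build was not given. It was at 196, 190.0 and 205 CPM with PDS against 97.0, 92.0 and 86.0 CPM in PDS control. The lowest PDS library was well above the highest control. The log2 difference was 1.10 ± 0.08, a 2.15-fold rise with an adjusted p of 7.12e-08 in edgeR, and its rank by size was 414 of 14184 genes. Under the alternatives tried it ranged from 1.06 to 1.15 and always passed. Skil, which encodes the SnoN co-repressor, was at 25.9, 20.7 and 26.0 CPM with PDS against 20.1, 15.4 and 18.1 CPM in PDS control. All 3 PDS libraries were above the controls, the nearest by less than 1 CPM (345 against 332 raw counts). The rise of 0.44 ± 0.13 (adjusted p = 0.0469) missed the threshold without PDS control replicate 2 (0.34, adjusted p = 0.213), PDS control replicate 3 (0.104), PDS replicate 1 (0.144) or PDS replicate 3 (0.186), without the count filter (0.055) and under upper quartile scaling (0.0635). Smad7, the inhibitory SMAD, was at 51.3, 51.5 and 48.7 CPM with PDS and at 49.6, 52.5 and 50.8 CPM in PDS control. Its libraries overlapped fully, with a log2 difference of -0.01 and a 95% interval from -0.28 to 0.25. Across the feedback genes the log2 difference thus ran from 1.10 for Pmepa1 to -0.01 for Smad7.

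**Figure D2:**
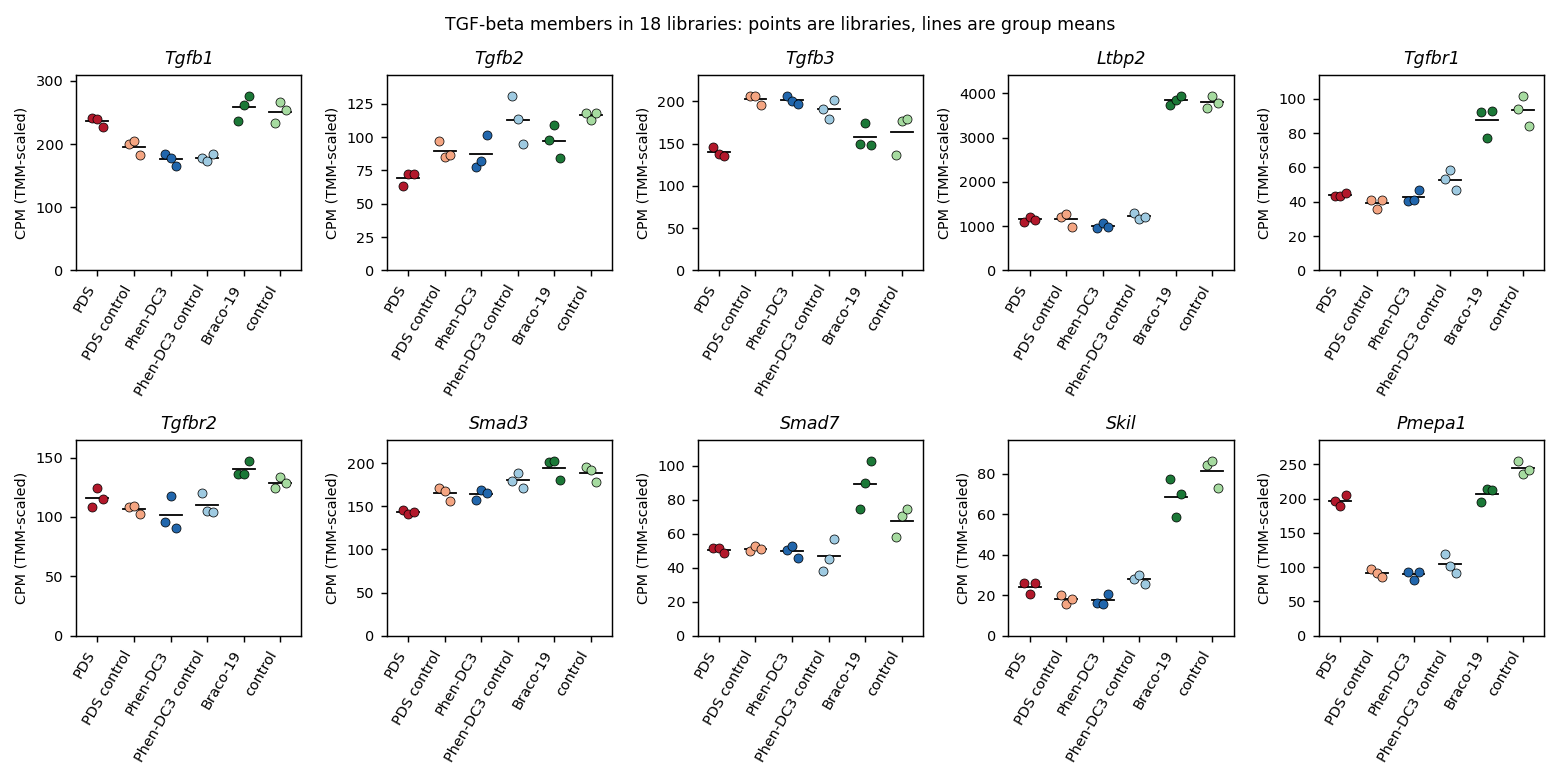
CPM of each of the 10 genes in all 18 libraries (points) with group means (lines), each compound left of its control. Pmepa1 is at 190.0 to 205 CPM with PDS and 86.0 to 97.0 CPM in PDS control, and Ltbp2 is at 3660.2 to 3951 CPM in the Braco-19 and plain control libraries and at 966 to 1302 CPM in the other 12.

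The rest of the pathway was read in 6 lists of 135 genes, of which 117 were tested. The Spearman correlation of the log2 difference with gene length across all genes was 0.17 for PDS. With PDS, 22 of them rose, 5 fell and 90 did not pass, so 23.1% passed against 8.09% of all genes; the lists were chosen with earlier results known and are given as counts only. The list of genes that TGF-beta induces, the longest of the 6, had 10 of 32 higher and none lower (13 higher and 2 lower at an unadjusted p under 0.05, and 10 and 1 by DESeq2). When any library was left out, 7 to 8 were higher and 0 to 1 lower. After the length correction 9 were higher and 1 lower. Its median log2 difference was 0.13, against 0.02 over all genes. Loxl2, an enzyme that crosslinks collagen, averaged 216 ± 8.5 CPM with PDS and 129 ± 4.6 CPM in PDS control (SD, n = 3 each), a difference of 0.75 ± 0.07. The cytokine gene Il11 averaged 85.3 ± 8.7 CPM with PDS and 44.9 ± 2.9 CPM in PDS control, a rise of 0.93 ± 0.11. The transcription factor gene Bhlhe40 rose by 0.50 ± 0.08 and the matricellular gene Ccn2 by 0.48 ± 0.08. Not all classic targets followed: Fn1 differed by 0.17 ± 0.11, Tgfbi by 0.12 ± 0.08, Acta2 by 0.03 ± 0.12 and Col1a1 by -0.28 ± 0.12, with adjusted p-values of 0.152 to 0.898. Col1a1 was called lower in edgeR without PDS control replicate 3 (-0.42, adjusted p = 0.0257). It was also called lower with replicate number as a block and the length correction (-0.37, adjusted p = 0.0289).

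Among 12 other ligands of the family, 4 rose and 2 fell. Bmp2, a bone morphogenetic protein, averaged 33.1 ± 0.92 CPM with PDS and 12.2 ± 0.59 CPM in PDS control, a 2.72-fold rise of 1.44 ± 0.15 with an adjusted p of 7.38e-06. Gdf6 rose by 0.98 ± 0.18 and Inhba, which encodes the activin A subunit, by 0.83 ± 0.17. Gdf15 (0.99), Bmp6 (-0.38) and Gdf11 (-0.36) are the others of these 6, named after their values were seen; Bmp6 missed the threshold in 3 and Gdf11 in 5 of the 6 fits that left out 1 library. Of 19 latency and storage genes, the integrin subunits Itgb1 (0.40 ± 0.07) and Itgb3 (1.67 ± 0.38, at only 1.61 CPM with PDS and 0.498 CPM in PDS control) rose and the matrix proteoglycan Fmod fell (-0.38 ± 0.12). Itgb3 missed the threshold without PDS replicate 2 (adjusted p = 0.0536), and Fmod missed it without any 1 of 5 of the 6 libraries, all but PDS control replicate 3 (adjusted p up to 0.301). None of 13 further receptors passed in edgeR, with 2 higher at an unadjusted p under 0.05 and none by DESeq2. Among 26 SMADs and partners, Tgif1, a co-repressor, rose by 0.34 ± 0.08 and Smurf2, a ubiquitin ligase for SMADs and receptors, by 0.33 ± 0.10. Tgif1 missed the threshold without PDS replicate 1 (adjusted p = 0.0641), and Smurf2 without any 1 of 5 libraries, all but PDS control replicate 1 (adjusted p up to 0.173). Smad2 (0.23 ± 0.07, adjusted p = 0.0572), Smad4 (0.12 ± 0.09) and Smad6 (-0.29 ± 0.14) did not pass. On the BMP side, 4 of 15 rose and 2 fell: the antagonist Grem1 rose by 0.45 ± 0.10, while Fst, which binds activin, and the transcription factor gene Atoh8 fell by 0.36 ± 0.07 and 0.38 ± 0.08. Fstl3 (0.41) and Id2 (0.33) also rose, and were named after their values were seen; Fstl3 missed the threshold in 1 and Id2 in 4 of the 6 fits that left out 1 library. In bulk libraries of this kind, a change in the share of cells and in the RNA per cell cannot be told apart.

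**Figure D3:**
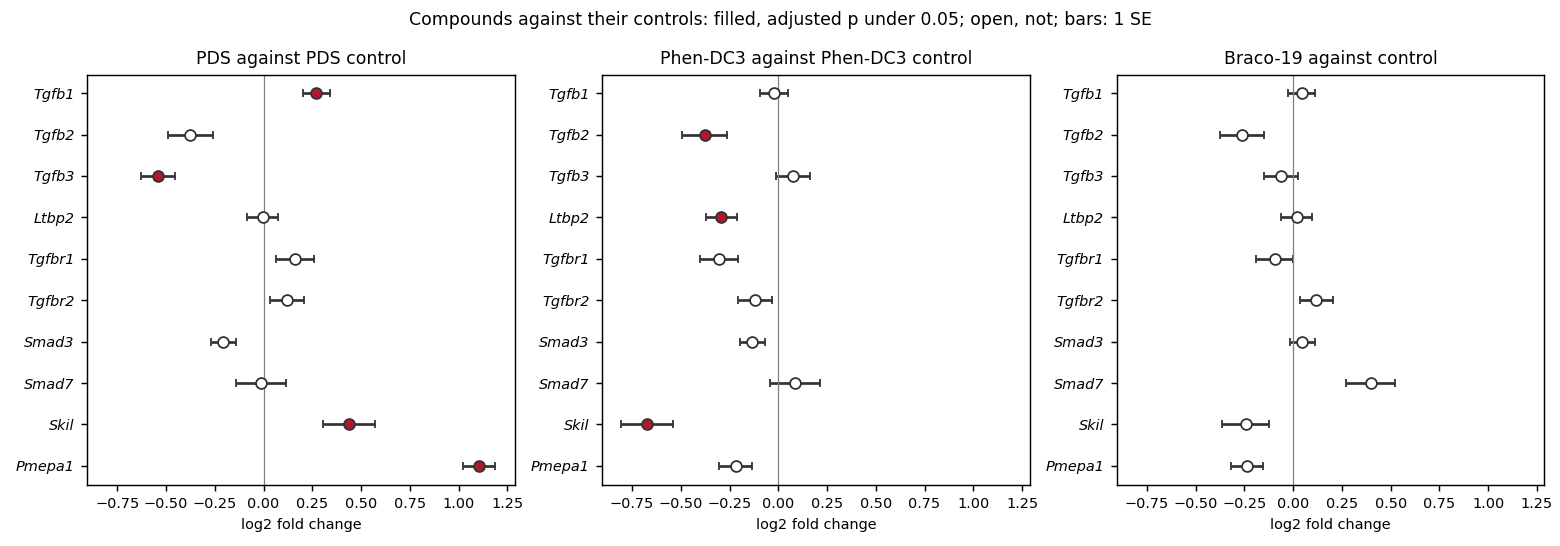
Log2 difference of each of the 10 genes for each compound against its own controls (points; bars are 1 SE; filled where edgeR's adjusted p is under 0.05). Pmepa1 lies at 1.10 with PDS and Skil at -0.67 with Phen-DC3, while no gene is filled for Braco-19.

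Phen-DC3 gave the opposite sign for Skil. Of the 10 genes none rose and 3 fell in edgeR, against 8.01% of all genes that passed (2.19% higher, 5.82% lower); at an unadjusted p under 0.05 none was higher and 5 were lower, and DESeq2 called 4 lower. Libraries did not overlap for 3 genes, against 22.1% of all genes. This comparison too was used in the choice. Skil was at 16.0, 15.8 and 20.7 CPM with Phen-DC3 and at 27.8, 30.2 and 25.6 CPM in Phen-DC3 control, each treated library lower than each control. Its difference was -0.67 ± 0.13 with an adjusted p of 0.0112. Ltbp2 was at 966, 1068 and 973 CPM with Phen-DC3 and at 1302, 1168 and 1215 CPM in Phen-DC3 control, also without overlap, a difference of -0.29 ± 0.08 (adjusted p = 0.0337). Tgfb2 was at 77.6, 81.8 and 102 CPM with Phen-DC3 and at 131, 114 and 94.7 CPM in Phen-DC3 control. The third Phen-DC3 library lay above the lowest control, and the difference of -0.38 ± 0.12 passed by a small margin (adjusted p = 0.0491).

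Gene length moved with this comparison. Across all tested genes the Spearman correlation of the log2 difference with gene model length was -0.44, a description across genes, which are not independent; long genes were lower with Phen-DC3. When each library's length trend was removed, 47 of all genes passed rather than 1136, and Skil, of 2528 bases, was the only one of the 10 (-0.64, adjusted p = 0.0316). Ltbp2, of 6710 bases, then stood at 0.01 and Tgfb2, of 4317 bases, at -0.19 (adjusted p = 0.26). In a fit of the 6 compared libraries alone, 1 of all genes and none of the 10 passed. Without 1 library at a time, 0 to 5 of the 10 passed: Skil (adjusted p from 0.0519 to 0.108), Ltbp2 (0.0604 to 0.179) and Tgfb2 (0.134 to 0.254) all missed without replicate 1 or 2 of Phen-DC3 control or of Phen-DC3. The remaining 7 genes did not pass. Tgfbr1 was nearest, at -0.30 ± 0.10 (adjusted p = 0.0589; -0.04 after the length correction), and Pmepa1 was at -0.22 ± 0.08, with 93.1, 81.8 and 93.4 CPM with Phen-DC3 against 119, 102 and 91.7 CPM in Phen-DC3 control. For Tgfb1, Tgfb3 and Smad7 the differences were -0.02, 0.08 and 0.09, with 95% intervals that covered 0.

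In the wider lists, 3 genes rose and 18 fell of 117 with Phen-DC3, so 17.9% passed against 8.01% of all genes. When 1 library was left out, 0 to 10 were called higher and 0 to 30 lower, and all 21 lost their calls without Phen-DC3 replicate 1 or Phen-DC3 control replicate 1; each missed the threshold in 2 to 5 of 6 such fits. Thbs1, an activator of latent TGF-beta, averaged 1221 ± 111 CPM with Phen-DC3 and 1706 ± 122 CPM in Phen-DC3 control (SD, n = 3 each), a difference of -0.48 ± 0.09. The storage genes Ltbp1 (-0.39 ± 0.07) and Fbn1 (-0.56 ± 0.11) and the receptors Bmpr2 (-0.57 ± 0.12), Tgfbr3 (-0.45 ± 0.11) and Cd109 (-0.39 ± 0.11) fell. So did the acetyltransferase genes Ep300 (-0.93 ± 0.18) and Crebbp (-0.65 ± 0.13), the ubiquitin ligase gene Rnf111 (-0.44 ± 0.09) and the TGF-beta-induced genes Fn1 (-0.58 ± 0.11), Klf10 (-0.40 ± 0.09) and Tnc (-0.39 ± 0.10). The 3 that rose were Id1 (0.25 ± 0.06), Cdkn1a (0.28) and Fkbp1a (0.21), the last 2 named after their values were seen. After the length correction, Ep300 (-0.90, adjusted p = 0.0316) was the only one of the 117 past the threshold.

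**Figure D4:**
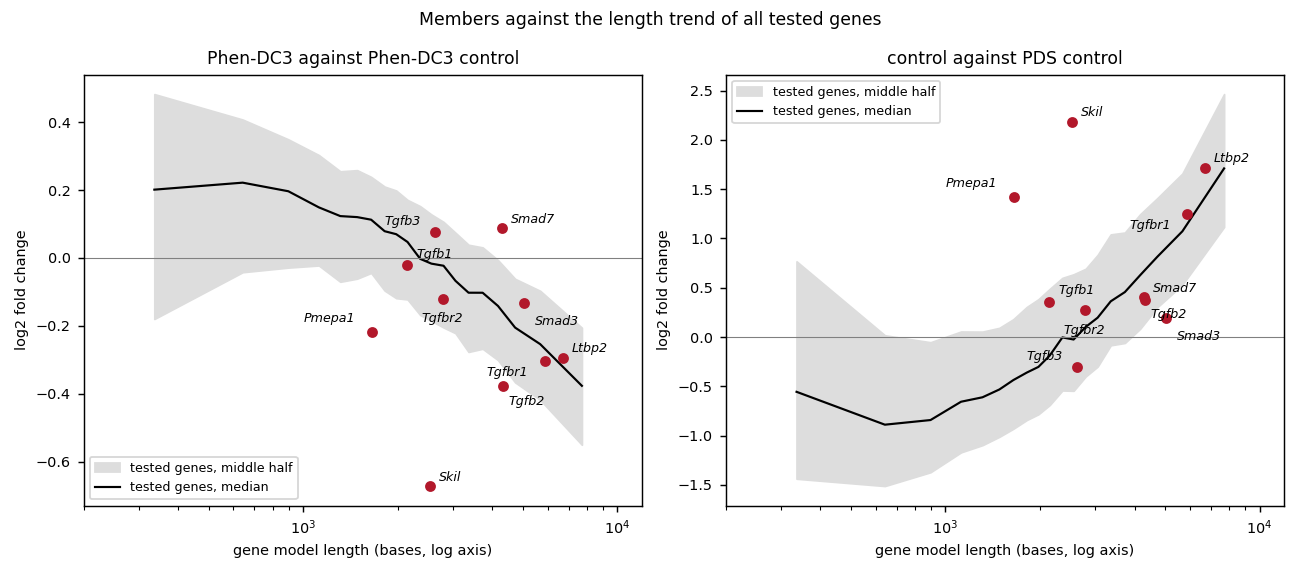
Log2 difference against gene model length (bases, log axis) for the 10 genes (red points) and all tested genes in 20 length bins (line, median; band, lower to upper quartile), for Phen-DC3 against its controls on the left and for plain control against PDS control on the right. Skil lies at -0.67 on the left and 2.19 on the right, far from the line in both, whereas Ltbp2 lies near the line.

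With Braco-19 none of the 10 genes passed in the edgeR fit of all 18 libraries or in DESeq2, where 0.275% of all genes passed edgeR, and at an unadjusted p under 0.05 there were 1 higher and 2 lower. In an edgeR fit of the 6 compared libraries alone, 781 of all genes rather than 39 passed, and 1 of the 10, Pmepa1 (-0.23, adjusted p = 0.0487). Libraries did not overlap for 3 genes, against 28.1% of all genes. Smad7 was at 74.2, 89.7 and 103 CPM with Braco-19 and at 57.7, 70.1 and 74.6 CPM in plain control. Braco-19's lowest library lay just under the highest control, and the difference was 0.40 ± 0.13 (95% interval 0.14 to 0.66, adjusted p = 0.143). Pmepa1 was at 195, 214 and 213 CPM with Braco-19 and at 255, 237 and 242 CPM in plain control, lower in every treated library, with a difference of -0.24 ± 0.08 (95% interval -0.41 to -0.07, adjusted p = 0.158). Tgfb2, at 97.9, 109 and 84.6 CPM with Braco-19 and 119, 113 and 118 CPM in plain control, also lay lower throughout, with a difference of -0.26 ± 0.11 (adjusted p = 0.235). The intervals of the other 7 genes covered 0, and the widest, that of Skil, ran from -0.50 to 0.01. None of the 117 pathway genes passed in the edgeR fit of all 18 libraries, with 14 higher and 16 lower at an unadjusted p under 0.05 and 1 higher and 2 lower by DESeq2. The 7 annulus or tendon fibroblast markers summed to 894 to 944 CPM with Braco-19 and 806 to 889.8 CPM in plain control, without overlap. For macrophages and monocytes the sums were 3.61 to 5.43 and 3.44 to 3.55 CPM, also without overlap. Nucleus pulposus sums overlapped (343 to 349 and 334 to 356 CPM). The part of these markers was not tested.

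The differences between compounds were tested directly, each effect against its own controls, with p-values adjusted over all genes within each of the 3 pairs; doses were not given, and may not match. Between PDS and Phen-DC3, 5 of the 10 genes differed, 4 higher and 1 lower, where 20.2% of all genes did (12.4% higher, 7.76% lower). Pmepa1 differed by 1.32 ± 0.12 (adjusted p = 2.86e-06), Skil by 1.11 ± 0.19 (0.00118), Tgfb3 by -0.62 ± 0.12 (0.00343), Tgfbr1 by 0.47 ± 0.14 (0.026) and Tgfb1 by 0.29 ± 0.10 (0.0461). The Tgfb1 difference missed the threshold in 19 of 21 alternatives and that of Tgfbr1 in 8, where it was 0.11 after the length correction; the other 3 passed in all 21. Between PDS and Braco-19, 3 of 10 differed where 14.0% of all genes did (7.28% higher, 6.75% lower): Pmepa1 by 1.34 ± 0.12 (1.15e-06), Skil by 0.68 ± 0.18 (0.0194) and Tgfb3 by -0.48 ± 0.12 (0.017). Skil missed without Braco-19 replicate 2 (0.0572), PDS control replicate 2 (0.057) or PDS replicate 3 (0.0594), and Tgfb3 without Braco-19 replicate 2 (0.058) or PDS replicate 3 (0.0501). These comparisons share the PDS libraries and their controls. Between Braco-19 and Phen-DC3 none of the 10 differed in edgeR or DESeq2, where 0.0494% of all genes did (0.0353% higher, 0.0141% lower), with 2 higher at an unadjusted p under 0.05, Skil (0.43) and Ltbp2 (0.31). For Pmepa1 the 95% interval of that difference ran from -0.26 to 0.22, and for Tgfb3 from -0.39 to 0.12. Smad7 and Tgfb2 passed for no pair of compounds in the edgeR fit of all 18 libraries. For Smad7 between PDS and Braco-19 the interval was -0.79 to -0.04 (adjusted p = 0.12), and it passed without Braco-19 replicate 1 (-0.53, adjusted p = 0.0422) and in a fit of the compared libraries alone (-0.44, adjusted p = 0.0362). Smad3, not past the threshold for any pair, passed for PDS and Braco-19 with DESeq2 (-0.26, adjusted p = 0.0378) and after the length correction (-0.39, adjusted p = 0.00814). Between PDS and Phen-DC3, Smad3 also passed in edgeR after the length correction (-0.38, adjusted p = 0.0132).

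The 3 control groups also differed from one another. Between Phen-DC3 control and PDS control, 2 of the 10 genes passed, both higher, where 6.09% of all genes did (4.50% higher, 1.59% lower): Skil at 27.8, 30.2 and 25.6 CPM in Phen-DC3 control against 20.1, 15.4 and 18.1 CPM in PDS control (0.64 ± 0.13, adjusted p = 0.0189), and Tgfbr1 (0.42 ± 0.10, adjusted p = 0.0233), which was at 0.21 after the length correction. Both missed the threshold without PDS control replicate 2 or without replicate 1 or 2 of Phen-DC3 control (adjusted p up to 0.117 for Skil and 0.139 for Tgfbr1), and neither passed in a fit of the compared libraries alone (0.142 and 0.143). Skil in Phen-DC3 control, at 25.6 to 30.2 CPM, overlapped the PDS libraries, while the Phen-DC3 libraries, at 15.8 to 20.7 CPM, lay near the 15.4 to 20.1 CPM of PDS control.

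Between plain control and PDS control all 10 genes passed, 9 higher and 1 lower, where 73.3% of all genes did (37.7% higher, 35.6% lower). Under upper quartile scaling 8 passed, without Smad3 and Tgfbr2. After the length correction 7 passed, but Smad3 and Tgfb2 did so with the opposite sign (edgeR adjusted p = 1.08e-09 and 0.00186). Without PDS control replicate 3 Smad3 was lost (adjusted p = 0.066). The 6 smooth muscle or pericyte markers summed to 42.5 to 49.9 CPM in plain control and 26.4 to 27.8 CPM in PDS control. Over all 18 libraries Cspg4 had the widest range of these 6, 3.68 to 23.4 CPM. Myh11 ran from 5.42 to 10.8 CPM and Mcam from 8.24 to 13.3 CPM. Des ran from 2.11 to 5.16, Kcnj8 from 1.06 to 3.29 and Rgs5 from 0 to 0.061 CPM. The sum thus need not stand for each marker. The 7 annulus or tendon fibroblast markers summed to 806 to 889.8 CPM in plain control and 1197 to 1223 CPM in PDS control. The 17 nucleus pulposus markers summed to 334 to 356 CPM in plain control and 291 to 301 CPM in PDS control. For 9 macrophage and monocyte markers the sums were 3.44 to 3.55 CPM in plain control and 1.02 to 1.59 CPM in PDS control. The part of these lists in the result was not tested. Ltbp2 was at 3660.2, 3940.4 and 3785 CPM in plain control against 1203, 1279 and 981 CPM in PDS control, a 3.29-fold difference (1.72 ± 0.08). Skil was at 84.6, 86.5 and 72.9 CPM in plain control, 4.55-fold above PDS control (2.19 ± 0.13), Pmepa1 differed by 1.42 ± 0.08 and Tgfbr1 by 1.25 ± 0.10. Tgfb3 was lower in plain control, at 137, 177 and 179 CPM against 207, 207 and 196 CPM in PDS control (-0.31 ± 0.09). Gene length again moved with the comparison, with a Spearman correlation across genes of 0.50. After the length correction Skil (2.09) and Pmepa1 (1.69) remained far higher, and Ltbp2 stood at 0.35 and Tgfbr1 at 0.08. Smad3 (-0.77), Tgfb2 (-0.37) and Smad7 (-0.34) took the opposite sign, Smad7 without passing (adjusted p = 0.0565). The matrix gene Fn1 took 7.75% ± 0.041 of all counts in plain control and 0.881% ± 0.15 in PDS control (SD, n = 3 each). Inhba averaged 309 ± 10.0 CPM in plain control and 20.1 ± 3.6 CPM in PDS control, and Acta2, the smooth muscle actin gene, 115 ± 24 CPM in plain control and 283 ± 18 CPM in PDS control.

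Between Phen-DC3 control and plain control, 8 of the 10 genes passed, 1 higher (Tgfb3, 0.22 ± 0.09) and 7 lower, where 69.5% of all genes did (34.6% higher, 34.9% lower); this comparison shares a group with each of the other 2. Tgfb3 missed the threshold without plain control replicate 1 (0.10, adjusted p = 0.259) or replicate 1 or 3 of Phen-DC3 control, and Tgfbr2 (-0.23) without plain control replicate 2 or replicate 2 (adjusted p = 0.139) or 3 of Phen-DC3 control, so that 6 to 8 passed when 1 library was left out. Ltbp2 (-1.63 ± 0.08), Skil (-1.54 ± 0.13) and Pmepa1 (-1.23 ± 0.08) lay furthest apart. After the length correction Smad3 (0.71), Tgfb2 (0.55), Tgfbr1 (0.13) and Smad7 (0.07) were on the other side of 0. Smad3 and Tgfb2, which had not passed as counted, passed there (edgeR adjusted p = 5.05e-09 and 3.93e-05). The level that PDS gave Pmepa1, 190.0 to 205 CPM, was still below the 237 to 255 CPM of plain control.

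**Figure D5:**
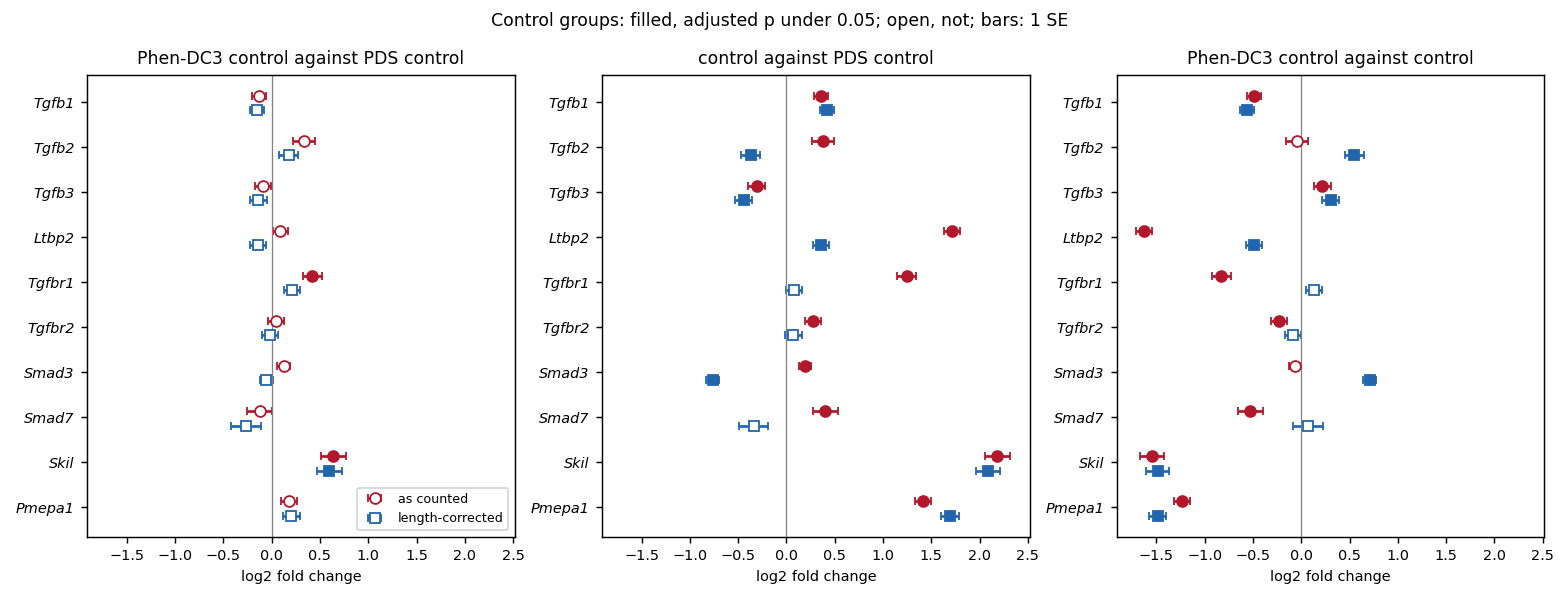
Log2 difference of each of the 10 genes between control groups, as counted (circles) and after the length correction (squares); bars are 1 SE, and symbols are filled where edgeR's adjusted p is under 0.05. For plain control against PDS control Skil lies at 2.19 as counted and 2.09 after the correction, and Ltbp2 at 1.72 and 0.35.

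Over the 18 libraries, the genes whose log2 CPM most resembled that of 3 of the 10 were named from the 9206 genes whose mean log2 CPM reached 3. For Pmepa1 they were Chsy3 (Pearson r = 0.983), Soat1 (0.979) and Chsy1 (0.976). For Smad7 they were Ncs1 (0.961), Hnrnpul2 (0.957) and Lmnb2 (0.954), and for Tgfb2 they were Ugcg (0.920), Ptpn9 (0.901) and Fgf10 (0.891). The 18 libraries fall into groups that differ in the length of what was counted, so the values describe a pattern over libraries and carry no p.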

How the data were processed

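RNA was measured in 18 libraries of rat nucleus pulposus cells. The deposited table holds raw read counts per gene with gene names, positions and lengths; the submitters' processing notes name CASAVA, HISAT2 and featureCounts 1.5.0-p3. Genome build, annotation release and strand setting were not given in the sources used here, so reads of overlapping genes may be shared. From the deposited counts, CPM (scaled by TMM) and RPKM were computed. All 14184 genes kept by filterByExpr were fitted in 1 model of 6 group means (12 residual degrees of freedom) with edgeR 4.0.16 in R 4.3.3 (limma 3.58.1), using quasi-likelihood F-tests with robust estimation and Benjamini-Hochberg adjustment over all genes, at a threshold of 0.05. Differences between compounds were interaction contrasts in that model. SE and 95% intervals are from the same fit. Counting error depends on the counts of each gene and is relatively larger for genes with few counts. In single libraries Skil had 260 to 1458 counts and Ltbp2 15655 to 71478.

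The 10 genes, the 6 pathway lists and the markers were chosen with earlier results of these data known. Named pathway genes were up to 3 per list and compound with the smallest p past the threshold, plus a fixed set (Ccn2, Tgfbi, Acta2, Fn1, Col1a1, Inhba, Tgfbr3, Smad2, Smad4, Smad6, Ltbp1, Id1); some genes under these rules are not reported here. Alternatives were other scalings and filters, DESeq2 1.42.0, fits of only the groups in each comparison, leaving out each library, and a replicate block. Another was an offset removing each library's trend on log gene length (a spline with 5 degrees of freedom), also tried with the block. No 2 libraries of a group held identical values, and replicates differed by more than counting noise. Promoter sequences are from RefSeq (GRCr8), a build whose coordinates are not those of the count table.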

Additional observations from a re-analysis of the deposited data

Results flagged for a closer look

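The effects of the compounds on 5 genes differed in a direct test of the difference in edgeR. Between PDS and Phen-DC3, the log2 effects differed by 1.32 for Pmepa1, 1.11 for Skil, -0.62 for Tgfb3, 0.47 for Tgfbr1 and 0.29 for Tgfb1. Between PDS and Braco-19 they differed by 1.34 for Pmepa1, 0.68 for Skil and -0.48 for Tgfb3. The Tgfbr1 difference was 0.11 after the length correction, and the Tgfb1 difference missed the threshold in 19 of 21 alternatives. Skil averaged 24.2 CPM with PDS and 17.9 CPM in PDS control, and 17.5 CPM with Phen-DC3 and 27.9 CPM in Phen-DC3 control. Its log2 level thus also differed between these controls, by 0.64 (edgeR adjusted p = 0.0189). Groups of 3 libraries are too small for a test of single outlying libraries.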

How the results depend on the processing

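Pmepa1 (higher) and Tgfb3 (lower) kept their calls with PDS under every alternative. For PDS, 4 of the 10 genes were called in the fit of 18 libraries. That number was 6 with DESeq2, under RLE scaling (another way to scale libraries) or after the length correction. It was 5 under upper quartile scaling and 3 without the count filter. In fits of the compared libraries alone, 6 of the 10 were called for PDS, 1 for Braco-19 and 0 for Phen-DC3. There 0 were called for Phen-DC3 control against PDS control and 5 for PDS minus Braco-19. In those fits all genes called were 781 for Braco-19, 2053 for PDS, 1 for Phen-DC3 and 3 for Phen-DC3 control against PDS control, against 39, 1148, 1136 and 864 in the fit of 18 libraries. DESeq2 called 333 for Braco-19, 2056 for Phen-DC3 and 1606 for Phen-DC3 control against PDS control. The length correction left 47 genes for Phen-DC3, with 1 of the 10, and 1 of the 10 for Phen-DC3 control against PDS control. Same-numbered libraries did not deviate together (correlations from -0.25 to 0.07), so the numbers were not taken as pairs; the replicate block gave 734 genes for Phen-DC3, and with the length correction 14 for Phen-DC3 and 412 for Phen-DC3 control against PDS control, each with 1 of the 10. Some differences called before or after the length correction turned sign with it, given here without and with the block. For Phen-DC3 this was Ltbp2 (0.011 and 0.0072). For plain control against PDS control these were Smad3 (-0.77 and -0.77), Smad7 (-0.34 and -0.34) and Tgfb2 (-0.37 and -0.37). For Phen-DC3 control against plain control these were Smad3 (0.71 and 0.71), Smad7 (0.070 and 0.064), Tgfb2 (0.55 and 0.55) and Tgfbr1 (0.13 and 0.13). In this last comparison Smad3 (-0.07, adjusted p = 0.367) and Tgfb2 (-0.04, adjusted p = 0.758) were not called as counted in edgeR. The Ltbp2 difference between PDS and Phen-DC3, not called at 0.29, was -0.11 after the length correction. The cause was not tested. Median log2 differences of all genes shifted by over 0.1 for plain control against PDS control under upper quartile scaling (a shift of -0.11) and the length correction (-0.14), and for Phen-DC3 control against plain control under both (0.11 and 0.10). Leaving out 1 library gave 2 to 4 of the 10 for PDS, 0 to 5 for Phen-DC3, 0 to 4 for Phen-DC3 control against PDS control, 1 to 4 for PDS minus Braco-19 and 3 to 4 for PDS minus Phen-DC3. All genes called then ranged from 563 to 867 for PDS, 0 to 3315 for Phen-DC3, 1 to 153 for Braco-19, 0 to 2740 for Phen-DC3 control against PDS control, 896 to 2353 for PDS minus Braco-19, 1447 to 4218 for PDS minus Phen-DC3 and 0 to 15 for Braco-19 minus Phen-DC3.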
